A study of Mus musculus with 12 samples.

Results

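The genes described are 10 members of the tumor necrosis factor (TNF) and NF-kB system: the cytokine gene Tnf, its receptor genes Tnfrsf1a and Tnfrsf1b, the NF-kB subunit genes Nfkb1, Nfkb2, Rel and Relb, the feedback inhibitor genes Nfkbia and Tnfaip3, and the kinase gene Ikbke. They were chosen by symbol, through the Ensembl identifiers of the count table, and are 10 of its 53431 gene rows. RNA-seq was made from adipose tissue of mice of mixed C57BL/6 x 129/SvJ background at 6 months of age, in 3 groups of 4 libraries. The first group is labelled Bbs2-/- GCSi: Bbs2-/- mice that ate feed with an inhibitor of glucosylceramide synthase (GCS), at 0.033% by weight, between 2 and 6 months of age. The second group is labelled Bbs2-/- with no treatment, and the third WT with no treatment. The product of Bbs2 is part of the BBSome, which carries membrane proteins into and out of the primary cilium, and loss of BBSome function causes obesity in mice. The labels give neither the fat depot nor the sex of the mice, and do not state that every library is its own mouse. The p-values therefore weigh each difference between groups against the spread among these libraries, which may be technical and not between mice.

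TNF is a cytokine that is made as a membrane protein, mostly by macrophages and other immune cells, and is cut free by the protease ADAM17. Its receptors recruit a signalling complex that activates the IkB kinases (IKK), which mark the inhibitor IkB for destruction and so let NF-kB dimers enter the nucleus. NF-kB then switches on inflammatory genes together with genes for its own inhibitors, and fat of obese mice is a classical setting in which TNF made by macrophages acts on neighbouring fat cells.

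The promoters of the NF-kB genes themselves can carry the sequence that NF-kB binds. The kappa-B consensus, searched on both strands with overlapping matches counted, occurred in 1480 of 32851 RefSeq promoter windows (4.51%), each reaching 250 bases before and 50 bases after a transcript start. Windows were found for 8 of the 10 members, all but Nfkb1 and Relb. A match in at least 1 window was present for 4 of these 8, Nfkb2, Rel, Nfkbia and Tnfaip3, and for 1388 of all 27025 genes with a window (5.14%). Tnf, Tnfrsf1a, Tnfrsf1b and Ikbke had no match within their windows. The 150 bases before the first listed start of each of the 4 genes are printed 5′ to 3′ on the gene's own strand (RefSeq, GRCm38.p6), because they include genes that changed across the groups and Nfkbia, which did not pass. Capitals mark the matches. The windows lie at chr19:46304587-46304736 on the plus strand for Nfkb2, and on the minus strand at chr11:23770970-23771119 for Rel, chr12:55492648-55492797 for Nfkbia and chr10:19015411-19015560 for Tnfaip3.
Nfkb2: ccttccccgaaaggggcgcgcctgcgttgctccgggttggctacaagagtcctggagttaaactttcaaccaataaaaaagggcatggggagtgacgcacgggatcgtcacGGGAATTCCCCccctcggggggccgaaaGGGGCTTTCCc
Rel: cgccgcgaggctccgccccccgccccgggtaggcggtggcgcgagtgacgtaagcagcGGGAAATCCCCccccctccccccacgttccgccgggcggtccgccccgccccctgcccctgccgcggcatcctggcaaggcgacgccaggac
Nfkbia: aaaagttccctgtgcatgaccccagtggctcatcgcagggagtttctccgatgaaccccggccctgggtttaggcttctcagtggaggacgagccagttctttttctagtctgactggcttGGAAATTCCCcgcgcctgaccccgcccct
Tnfaip3: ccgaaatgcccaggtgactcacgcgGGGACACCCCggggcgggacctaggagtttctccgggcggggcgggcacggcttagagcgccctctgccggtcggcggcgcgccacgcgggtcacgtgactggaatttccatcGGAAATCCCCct
In Nfkb2 the first run of capitals holds overlapping matches that begin at positions -39 and -38, counted back from the transcript start, and the second begins at -11. The Rel run also holds overlapping matches, from -92 and -91. Nfkbia has its match at -29, and Tnfaip3 at -125 and -12. A match describes the letters only and is not a measured binding site.

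The libraries held between 16317865 and 20224200 estimated counts, and 15968 genes passed the filter on low counts, all 10 members included. Bbs2 transcripts went against a simple reading of the genotype labels: they measured 65.4, 62.7, 53.7 and 64.1 CPM (counts scaled to a common library total) in the libraries labelled Bbs2-/- GCSi and 69.5, 53.9, 53.7 and 70.6 CPM in those labelled Bbs2-/-, against 12.1, 12.5, 12.7 and 12.7 CPM in those labelled WT. Each group is therefore named as the labels give it, and every direction below rests on those labels. Ugcg, which encodes the enzyme the inhibitor blocks, averaged 48.7 ± 9.20 CPM in libraries labelled Bbs2-/- and 34.2 ± 3.79 CPM in those labelled WT (SD, n = 4 each; adjusted p = 0.0197 by edgeR), and passed neither without Bbs2-/- 2 (adjusted p = 0.0521) nor without WT 2 (adjusted p = 0.0596). In treated libraries Ugcg averaged 40.7 ± 7.16 CPM, a log2 difference of -0.26 to untreated Bbs2-/- (adjusted p = 0.203) and 0.25 to WT (adjusted p = 0.596). Adipocyte markers were present in every library, with summed levels of 32191 to 48552 CPM in the treated group, 15581 to 20020 CPM in untreated Bbs2-/- and 29792 to 49372 CPM in WT. The 12 macrophage markers summed to 771 to 1931 CPM in the treated group, 6649 to 9246 CPM in untreated Bbs2-/- and 772 to 2924 CPM in WT, and none of the 12 was at 0 throughout any group. Foxj1, a regulator of motile cilia, reached 7.97 and 7.41 CPM in treated libraries 1 and 3 and 2.61 and 9.53 CPM in WT 1 and WT 4, while no other library exceeded 0.135 CPM, so results were also computed without these 4. WT 1 alone held a sizeable sum of epididymis markers, 1086 CPM against at most 3.08 CPM elsewhere.

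In libraries labelled Bbs2-/- the TNF and NF-kB genes were mostly higher than in those labelled WT. Across all genes tested, 39.2% passed the threshold of an adjusted p under 0.05 in this comparison, 19.6% as higher and 19.7% as lower. Of the 10 members, 7 rose and none fell: Tnf, Tnfrsf1b, Ikbke, Rel, Nfkb2, Nfkb1 and Tnfaip3. With libraries scaled to their totals alone, 9 rose, Tnfrsf1a and Relb included, and the median of all genes was then 0.164. That fit called 4460 of all 15968 genes as higher and 2005 as lower, so 69% of its calls were upward. The median log2 fold change in the TMM-scaled fit was 0.85 over the members and -0.02 over all genes tested. The libraries of the groups did not overlap for 8 of the 10 members, all of them higher, against 36.7% of all genes, 19.5% higher and 17.2% lower. In bulk tissue, more cells of a type and more RNA per cell cannot be told apart, which applies to every difference given here.

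The ligand gene was scarce. Tnf (chr17:35199381-35202007, minus strand, mm10) measured 2.17, 1.63, 3.33 and 1.31 CPM in libraries labelled Bbs2-/- GCSi, 8.04, 5.09, 4.39 and 6.75 CPM in those labelled Bbs2-/-, and 1.80, 1.55, 0.531 and 1.80 CPM in those labelled WT. Every untreated Bbs2-/- library was above every library of both other groups, whose ranges overlapped each other. The 4 WT libraries held 33, 23, 8 and 31 Tnf counts, so counting error is sizeable there. Tnf rose 4.24-fold in Bbs2-/- against WT (log2 fold change 2.08 ± 0.40 SE; adjusted p = 0.00176 by edgeR) and fell by 1.52 ± 0.39 on the log2 scale in treated against untreated Bbs2-/- (adjusted p = 0.00919).

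The receptor genes behaved differently. Tnfrsf1a, the receptor that most cell types carry and that can trigger cell death (chr6:125349362-125362484, plus strand), measured 226, 206, 166 and 219 CPM in libraries labelled Bbs2-/- GCSi, 232, 219, 211 and 233 CPM in Bbs2-/-, and 159, 197, 168 and 206 CPM in WT. The untreated Bbs2-/- libraries all lay just above the WT range, and the treated libraries overlapped both. The log2 difference of Bbs2-/- to WT was 0.29 ± 0.12 SE and missed the threshold (adjusted p = 0.0612), while leaving out treated library 3 (adjusted p = 0.0354) or WT 4 (adjusted p = 0.0428) brought it past. Treated and untreated Bbs2-/- differed by -0.13 ± 0.11 (adjusted p = 0.404; 95% interval -0.38 to 0.12).
Tnfrsf1b, a receptor found mainly on immune and endothelial cells (chr4:145213463-145246870, minus strand), measured 47.7, 44.1, 30.5 and 20.3 CPM in libraries labelled Bbs2-/- GCSi, 165, 169, 150 and 161 CPM in Bbs2-/-, and 67.8, 34.7, 21.5 and 29.4 CPM in WT. All untreated Bbs2-/- libraries stood far above the rest, and WT 1 was the highest of the others. Tnfrsf1b rose 4.19-fold in Bbs2-/- against WT (log2 fold change 2.07 ± 0.34 SE; adjusted p = 0.000907) and fell by 2.18 ± 0.34 on the log2 scale with treatment (adjusted p = 0.000705). The ratio of Tnfrsf1a to Tnfrsf1b CPM was thus 4.68 to 10.8 in treated libraries, 1.30 to 1.45 in untreated Bbs2-/- and 2.35 to 7.80 in WT, with no overlap between untreated Bbs2-/- and either other group.

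**Figure D1:**
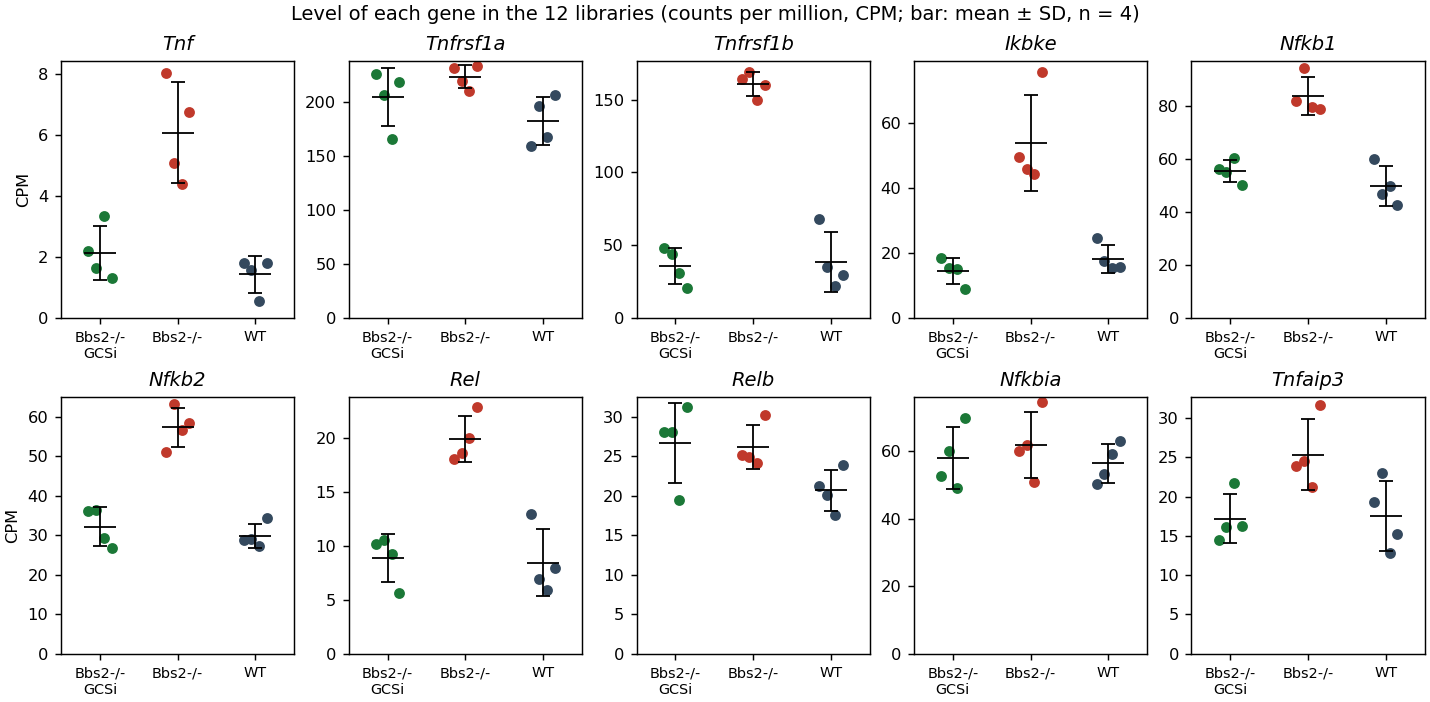
Level of each of the 10 genes in CPM, with 1 point per library and the mean and SD of each group of 4. The untreated Bbs2-/- points of Tnf, Tnfrsf1b, Ikbke, Rel, Nfkb1 and Nfkb2 lie above all points of the other groups, whereas those of Nfkbia overlap them.

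Ikbke encodes IKK-epsilon, a kinase related to the IkB kinases that is itself induced by NF-kB and is known to rise in fat of obese mice. It (chr1:131254343-131279606, minus strand) measured 18.3, 15.3, 15.03 and 8.86 CPM in libraries labelled Bbs2-/- GCSi, 49.5, 45.7, 44.4 and 75.7 CPM in Bbs2-/-, and 24.6, 17.4, 15.3 and 15.5 CPM in WT. Bbs2-/- 4 was the highest library, but the other untreated libraries also exceeded every treated and WT library. Ikbke rose 2.96-fold in Bbs2-/- against WT (log2 fold change 1.56 ± 0.24 SE; adjusted p = 0.000586) and fell by 1.90 ± 0.25 on the log2 scale with treatment (adjusted p = 0.000226). Its exons share 159 bases with Gm28914 and 65 bases with Gm28913, both on the opposite strand, and the strand setting of the counting is not given, so part of its counts is uncertain.

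Of the 4 NF-kB subunit genes among the members, 3 passed in Bbs2-/- against WT and with treatment, where 39.2% and 37.2% of all genes passed. Rela, a subunit gene outside the members that is given below, did not pass in the main fit. Nfkb1, whose product is cut to the DNA-binding subunit of the most common dimer (chr3:135584655-135691547, minus strand), measured 56.3, 55.0, 60.1 and 49.99 CPM in libraries labelled Bbs2-/- GCSi, 81.8, 94.3, 79.5 and 78.9 CPM in Bbs2-/-, and 59.96, 46.6, 49.6 and 42.7 CPM in WT. The untreated Bbs2-/- libraries stood above all others. Nfkb1 rose by 0.75 ± 0.11 (SE) on the log2 scale against WT (adjusted p = 0.000405) and fell by 0.59 ± 0.11 with treatment (adjusted p = 0.00152).
Nfkb2 encodes the subunit processed in the slower, noncanonical arm (chr19:46304320-46312385, plus strand). It measured 36.2, 36.5, 29.3 and 26.8 CPM in libraries labelled Bbs2-/- GCSi, 51.2, 63.2, 56.8 and 58.4 CPM in Bbs2-/-, and 28.8, 29.0, 27.3 and 34.3 CPM in WT. The groups separated in the same way, with a log2 fold change of 0.94 ± 0.12 (SE) in Bbs2-/- against WT (adjusted p = 0.000192) and a fall by 0.83 ± 0.12 with treatment (adjusted p = 0.000345). Nfkb2 shares 531 exon bases with AC114539.1 and 299 with Psd, both on the opposite strand.
Rel encodes c-Rel, a subunit used chiefly by lymphoid and myeloid cells (chr11:23736847-23770970, minus strand). It measured 10.1, 10.6, 9.26 and 5.66 CPM in libraries labelled Bbs2-/- GCSi, 18.1, 18.6, 20.0 and 22.9 CPM in Bbs2-/-, and 12.9, 6.96, 5.90 and 7.96 CPM in WT. WT 1 was the highest library outside untreated Bbs2-/-, and still below all 4 of these. Rel rose by 1.23 ± 0.24 (SE) on the log2 scale against WT (adjusted p = 0.00218) and fell by 1.16 ± 0.24 with treatment (adjusted p = 0.00318).
Relb, the transcription-activating partner of the Nfkb2 product (chr7:19606217-19629438, minus strand), measured 28.0, 28.0, 19.5 and 31.3 CPM in libraries labelled Bbs2-/- GCSi, 25.2, 24.9, 24.2 and 30.2 CPM in Bbs2-/-, and 21.2, 20.1, 17.5 and 23.8 CPM in WT. The treated libraries spanned nearly the range of all 12. The log2 difference of Bbs2-/- to WT was 0.34 ± 0.15 SE (adjusted p = 0.0867), which passed without treated library 3 (adjusted p = 0.0349), and that of treated to untreated Bbs2-/- was 0.03 ± 0.15 (adjusted p = 0.885; 95% interval -0.28 to 0.35), with a sign that turned to -0.0997 when libraries were scaled to their totals alone.

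Of the feedback inhibitors, Nfkbia did not pass in any comparison and Tnfaip3 passed narrowly in 2. Nfkbia encodes IkB-alpha, which holds NF-kB in the cytoplasm and is one of its quickest targets (chr12:55489410-55492647, minus strand). It measured 52.7, 60.2, 49.1 and 69.8 CPM in libraries labelled Bbs2-/- GCSi, 59.9, 61.9, 50.8 and 74.7 CPM in Bbs2-/-, and 50.2, 53.3, 59.1 and 62.9 CPM in WT. The 3 groups overlapped, and the log2 difference was 0.13 ± 0.14 SE for Bbs2-/- to WT (adjusted p = 0.473; 95% interval -0.16 to 0.43) and -0.09 ± 0.14 for treated to untreated Bbs2-/- (adjusted p = 0.627; 95% interval -0.39 to 0.20).
Tnfaip3 encodes A20, a ubiquitin-editing enzyme that shuts off the TNF receptor complex (chr10:19000910-19015657, minus strand). It measured 14.5, 16.2, 21.8 and 16.3 CPM in libraries labelled Bbs2-/- GCSi, 23.9, 24.6, 21.2 and 31.7 CPM in Bbs2-/-, and 19.3, 23.0, 12.8 and 15.3 CPM in WT. The lowest untreated library, Bbs2-/- 3, lay within the ranges of both other groups. Tnfaip3 rose by 0.53 ± 0.19 (SE) on the log2 scale against WT (adjusted p = 0.046) and fell by 0.56 ± 0.19 with treatment (adjusted p = 0.0377). Both calls sat close to the threshold. That against WT was lost without treated library 2 or 4, Bbs2-/- 1, 2 or 4, or WT 3 or 4 (adjusted p up to 0.123, log2 fold change 0.40 to 0.68 over the 12 fits that leave out 1 library). That of treatment was lost without treated library 1, 2 or 4 or Bbs2-/- 1, 2 or 4 (adjusted p up to 0.102, log2 fold change -0.69 to -0.46).

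In libraries labelled Bbs2-/- GCSi, 7 of the 10 members were lower than in untreated Bbs2-/-, where 37.2% of all genes tested passed the threshold, 18.5% as higher and 18.8% as lower. These were Tnf, Tnfrsf1b, Ikbke, Rel, Nfkb2, Nfkb1 and Tnfaip3, and none rose. The members' median log2 fold change was -0.71, against 0.03 over all genes tested. For 6 members every treated library was below every untreated one, which held for 20.7% of all genes; 19% were apart in the other direction and 39.7% in either. The comparisons with WT and with treatment share the 4 untreated Bbs2-/- libraries, so high or low values there move both.

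**Figure D2:**
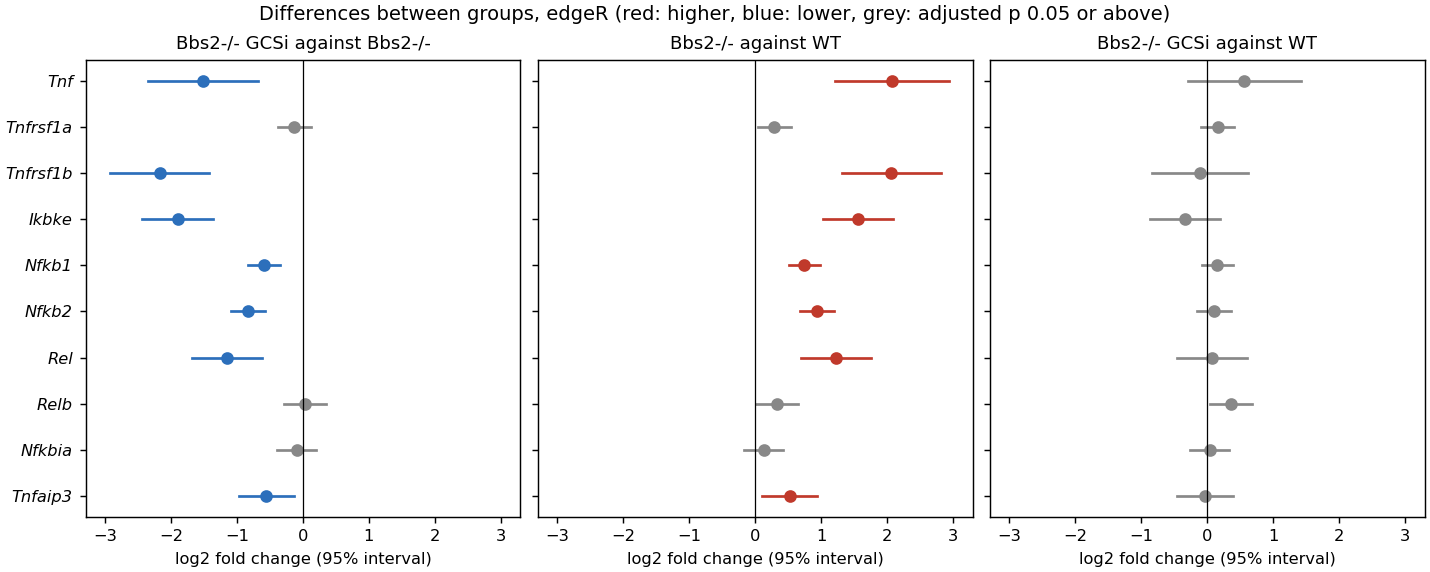
Log2 fold change of each gene with its 95% interval, for each comparison. Intervals of Tnf, Tnfrsf1b, Ikbke, Rel, Nfkb2, Nfkb1 and Tnfaip3 lie clear of 0 in opposite directions for Bbs2-/- against WT and treated against untreated Bbs2-/-. For treated Bbs2-/- against WT only the interval of Relb, 0.05 to 0.69, does not include 0.

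Between libraries labelled Bbs2-/- GCSi and those labelled WT, none of the 10 members passed the threshold in edgeR, DESeq2 or limma, where 0.257% of all genes tested did in edgeR, 0.175% as higher and 0.0814% as lower. At an unadjusted p under 0.05, 1 member passed, Relb, a share like the 10.6% of all genes tested that did. It averaged 26.7 ± 5.05 CPM in treated libraries and 20.7 ± 2.62 CPM in WT (SD, n = 4 each). Its log2 difference was 0.37 (unadjusted p = 0.0269 and adjusted p = 0.399 by edgeR). The libraries overlapped for all 10, where 4.89% of all genes did not overlap, 2.68% higher and 2.21% lower. The intervals show how large a difference could have been missed. For Tnf the log2 difference was 0.57 with a 95% interval of -0.29 to 1.42, for Tnfrsf1b -0.11 with -0.84 to 0.62, and for Ikbke -0.34 with -0.87 to 0.19. Narrower intervals were reached for Nfkb1, 0.15 with -0.08 to 0.39, and Nfkb2, 0.11 with -0.15 to 0.37.

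Markers of several cell types also differed between the groups. Of all genes tested, 39.2% were called in Bbs2-/- against WT, 19.6% as higher and 19.7% as lower. With treatment 37.2% were called, 18.5% as higher and 18.8% as lower. Of the 12 macrophage markers, 11 rose in Bbs2-/- against WT and 11 fell with treatment. Within WT, the library with the largest macrophage sum, WT 1 at 2924 CPM, also had the highest Tnfrsf1b, Rel, Ikbke and Nfkb1 of its group. It was the lowest WT library for Tnfrsf1a and Nfkbia, and neither highest nor lowest for Tnf, Nfkb2, Relb and Tnfaip3. Neutrophil markers summed to 9.79 to 34.2 CPM in treated libraries, 60.1 to 75.8 CPM in untreated Bbs2-/- and 15.01 to 34.1 CPM in WT. Of 4 neutrophil markers tested, 3 rose and 1 fell in Bbs2-/- against WT, and 2 fell with treatment. T cell sums were 6.82 to 16.8 CPM in treated libraries, 16.2 to 24.1 CPM in untreated Bbs2-/- and 7.73 to 12.5 CPM in WT. Only 3 of 8 T cell markers rose in Bbs2-/- against WT, and 2 of 8 fell with treatment. B cell sums were 5.61 to 17.9 CPM in treated libraries, 17.8 to 53.8 CPM in untreated Bbs2-/- and 5.93 to 8.17 CPM in WT. For B cells, 7 of 8 markers rose in Bbs2-/- against WT and 3 of 8 fell with treatment. Mast cell sums were 30.8 to 42.9 CPM in treated libraries, 46.9 to 180 CPM in untreated Bbs2-/- and 26.4 to 50.9 CPM in WT. Of 7 mast cell markers tested, 4 rose and 1 fell in Bbs2-/- against WT, and 1 rose and 4 fell with treatment. Fibroblast sums were 2418 to 2914 CPM in treated libraries, 4724 to 5445 CPM in untreated Bbs2-/- and 2317 to 3996 CPM in WT, with 5 of 8 markers higher in Bbs2-/- against WT and 5 of 8 lower with treatment. Endothelial sums were 1015 to 1403 CPM in treated libraries, 632 to 1044 CPM in untreated Bbs2-/- and 742 to 1139 CPM in WT. None of the 8 endothelial markers passed in Bbs2-/- against WT, and 4 of 8 rose with treatment. Among neutrophil markers, Retnlg was at 0 in every treated library and Ly6g in every WT library. Adipocyte markers ran the other way, with 10 of 12 lower in Bbs2-/- against WT and 11 of 12 higher with treatment. The part of cell makeup in the TNF and NF-kB differences was not tested.

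**Figure D3:**
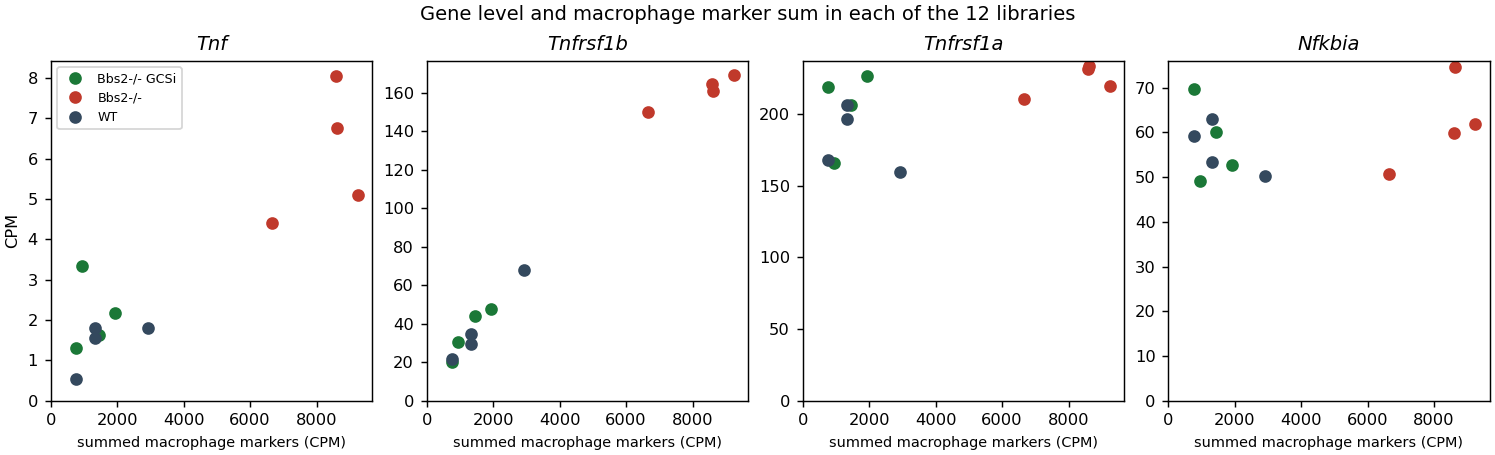
Level of Tnf, Tnfrsf1b, Tnfrsf1a and Nfkbia in CPM (vertical) against the summed level of the 12 macrophage markers in CPM (horizontal), with 1 point per library. The untreated Bbs2-/- libraries, at sums of 6649 to 9246 CPM, are apart from the treated and WT libraries, which reach at most 2924 CPM.

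Per length of transcript, Tnfrsf1a was the most abundant member in all 3 groups. Its mean deposited log2 FPKM level was 6.70 ± 0.18 in treated Bbs2-/-, 6.78 ± 0.06 in untreated Bbs2-/- and 6.56 ± 0.17 in WT (SD, n = 4 each). Nfkbia followed in treated Bbs2-/- at 5.35 ± 0.21 and in WT at 5.34 ± 0.14, each clear of its neighbours in the order. In untreated Bbs2-/- the next level was that of Tnfrsf1b, 5.50 ± 0.07, which overlapped Nfkbia at 5.39 ± 0.22, whereas Tnfrsf1b was sixth in order in treated Bbs2-/- at 3.42 ± 0.51 and in WT at 3.49 ± 0.64. From Nfkb1 down to Tnfaip3, neighbouring members overlapped in treated Bbs2-/- and in WT. In untreated Bbs2-/- Ikbke was clear of Relb below it and Relb of Tnfaip3. Tnf and Rel were the lowest in each group and overlapped each other, with Tnf at 1.24 ± 0.35 in treated Bbs2-/-, 2.27 ± 0.30 in untreated Bbs2-/- and 0.94 ± 0.34 in WT.

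**Figure D4:**
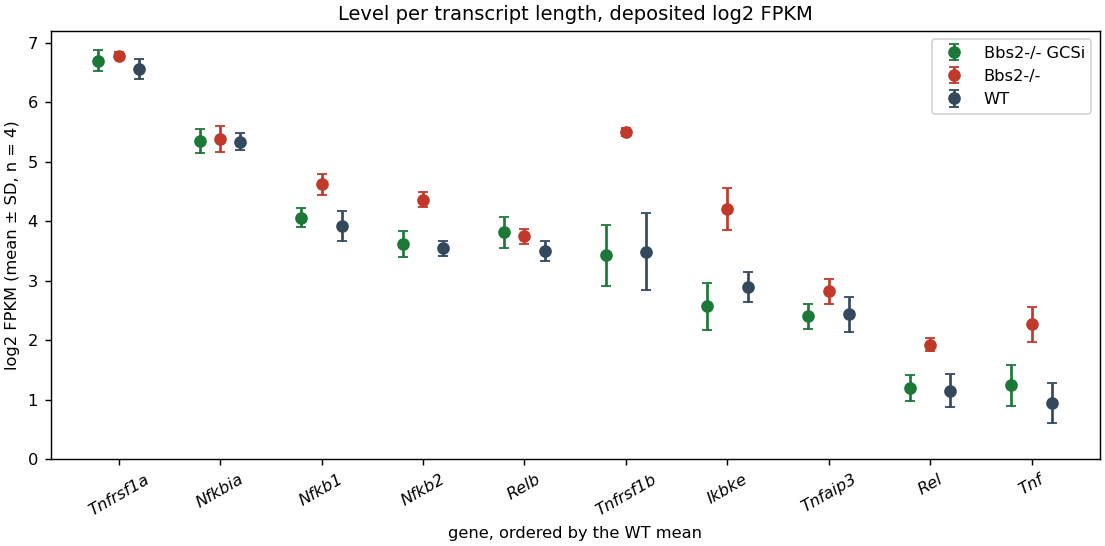
Deposited log2 FPKM level of each member in each group, as the mean and SD of 4 libraries. Tnfrsf1a is highest in all groups, Tnf and Rel are lowest, and Tnfrsf1b shows the largest step, 5.50 in untreated Bbs2-/- against 3.42 in treated Bbs2-/-.

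The genes whose profile over the 12 libraries was most like that of each member were sought among 11943 named protein-coding genes, by the root mean square difference of centred log2 CPM. Plxnc1 was nearest to Tnfrsf1b at 0.11, followed by Arhgap9 and Cotl1 at 0.12 each, where Tnfrsf1b itself varied by 1.14 about its mean. Nfkb2 was nearest to Birc3, an inhibitor of apoptosis and NF-kB target, at 0.09, then Tgm2 and Frmd8 at 0.11 each. Ikbke had Arhgap22, the chemokine gene Cxcl16 and Card9 at 0.18, 0.18 and 0.19, and Rel had Prcp, Entpd1 and Rab11fip5 at 0.11, 0.12 and 0.14. Nfkb1 lay nearest to Plekha1, Gng12 and Tmpo, with distances of 0.08 to 0.09, and Tnfaip3 to Poc1b, Csgalnact2 and Tent5a, with 0.18 to 0.19. Clec5a, Cklf and Ccdc88b were nearest to Tnf, at 0.38 to 0.40, the largest such distances of any member. The distance is not divided by a gene's own variation, which was 1.02 for Tnf and 0.36 for Tnfaip3. The low counts of Tnf may also add to its distances. For members that changed little the likeness carries less: Ralb, Tmem185b and Vapa for Tnfrsf1a, Fbxl8, Rpa2 and Rassf1 for Relb, and Pgls, Rpl13 and Ctdnep1 for Nfkbia. Among the members, Tnfrsf1a and Relb were the closest pair at 0.15 and Tnfrsf1b and Nfkbia the farthest at 1.14. Tnfrsf1a and Relb varied by only 0.19 and 0.25 about their means, so their small distance does not show that they varied together. Nfkb1 and Nfkb2 lay at 0.22, where they varied by 0.35 and 0.45.

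The rest of the pathway was described by 6 lists, 80 of whose 88 genes were tested. Their counts are to be read against the 39.2% of all genes called in Bbs2-/- against WT and the 37.2% called with treatment. Without WT 2 and WT 3, 3417 of 16877 genes tested were called in Bbs2-/- against WT, in place of 6263 of 15968. Of the 3417, 1724 were higher and 1693 lower, so list counts in that fit fall along with those of all genes. Genes for the release of TNF and for its relatives were mixed. In Bbs2-/- against WT, 7 of 13 tested rose, 1 fell and the median log2 fold change was 0.72. Adam17, the protease that frees TNF, averaged 110 ± 6.02 CPM in Bbs2-/- and 44.5 ± 10.5 CPM in WT (SD, n = 4 each; log2 fold change 1.31, adjusted p = 0.000129). Spi1, a transcription factor of myeloid cells, rose by 2.51, Tnfsf12 by 1.20 and Rhbdf2, a partner that carries ADAM17 to the surface, by 0.72. Timp3, an inhibitor of ADAM17, fell by 0.91 (adjusted p = 0.00181). With treatment 2 rose and 6 fell, with a median of -0.56. Adam17 fell by 1.34 and Tnfsf12 by 1.22, and Rhbdf1 rose by 0.64. Timp3 rose by 0.48 at an adjusted p of 0.0478, a call lost without any of treated libraries 2, 3 and 4, Bbs2-/- 1, 2 and 4 and WT 2 and 4 (adjusted p up to 0.136).

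In the receptor complex, 9 of 21 genes rose and 1 fell in Bbs2-/- against WT, and the median over all 21 was 0.25 on the log2 scale. The share called, 47.6%, was near the 39.2% of all genes. Without WT 2 and WT 3 together, 3 rose and 1 fell, in a fit that called fewer of all genes too. Ripk3, a kinase of necroptosis, rose by 1.18, Tnip2, an A20-binding inhibitor, by 0.81, the adaptor Traf5 by 0.67 and Tab2 by 0.37. Tab3, which like Tab2 couples the complex to the kinase TAK1, fell by 1.25, with 17.1 ± 1.63 CPM in Bbs2-/- and 40.9 ± 3.31 CPM in WT (adjusted p = 6.02e-05). With treatment 2 rose and 7 fell, with a median of -0.15, and the share called, 42.9%, was near the 37.2% of all genes. Ripk3 fell by 1.26 and Traf5 by 1.03, while Tab3 rose by 0.71 and Rbck1 by 0.30. The Tab2 call against WT was lost without WT 2 and WT 3 (adjusted p = 0.0692). The Rbck1 call (adjusted p = 0.0274) was lost without treated library 2 or 4 or Bbs2-/- 1, 2 or 3 (adjusted p up to 0.0996).

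Of 10 genes for IKK, related kinases and their partner proteins, 5 rose and none fell in Bbs2-/- against WT. The median was 0.26, and 3 rose without WT 2 and WT 3. The share called was 50%, where 39.2% of all genes were called. Those that rose included Map3k8 with a log2 fold change of 0.98, Map3k14, the kinase that starts the noncanonical arm, with 0.75, Tbk1 with 0.52 and Ikbkb with 0.41. Tbk1 lost its call without WT 2 and WT 3 (adjusted p = 0.0543). With treatment 1 rose and 4 fell, with a median of -0.34, and 2 rose and 6 fell without WT 1. Map3k8 fell by 1.13 and Ikbkb by 0.46. Tbkbp1 rose by 0.35 (adjusted p = 0.0246), which was lost without treated library 2 or 4 or Bbs2-/- 1, 3 or 4 (adjusted p up to 0.0887).

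The other NF-kB and IkB genes separated into those that changed and those that did not pass. In Bbs2-/- against WT 4 of 7 rose. Nfkbid measured 4.24, 3.21, 2.22 and 1.15 CPM in libraries labelled Bbs2-/- GCSi, 14.7, 12.9, 9.63 and 12.9 CPM in Bbs2-/-, and 4.14, 3.04, 1.79 and 1.80 CPM in WT, so that untreated Bbs2-/- stood apart. Its log2 fold change was 2.21 against WT and -2.21 with treatment. Nfkbie, another cytoplasmic inhibitor, had 1.94 and -1.39, and the nuclear regulators Bcl3 and Nfkbiz had 1.89 and -1.03, and 1.38 and -1.44. Rela, the main transactivating subunit, did not pass, with log2 differences of 0.19 (adjusted p = 0.183) and -0.02 (adjusted p = 0.918). Neither did Nfkbib, with 0.30 (adjusted p = 0.102) and 0.01 (adjusted p = 0.96), or Nfkbil1, with -0.19 (adjusted p = 0.437) and 0.38 (adjusted p = 0.127, and past the threshold without WT 1, adjusted p = 0.0423). With libraries scaled to their totals alone, Rela (0.37, adjusted p = 0.0114 by edgeR) and Nfkbib (0.49, adjusted p = 0.012) passed in Bbs2-/- against WT. Of all genes called in that fit, 69% were higher, in place of 49.9%. The medians over the list in the main fit were 1.38 and -1.03. In treated Bbs2-/- against WT none of the 7 passed in edgeR and 2 had an unadjusted p under 0.05, where 10.6% of all genes tested did. The log2 differences were 0.85 for Bcl3, 0.55 for Nfkbie, 0.31 for Nfkbib, 0.18 for Nfkbil1, 0.17 for Rela, 0.01 for Nfkbid and -0.06 for Nfkbiz.

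For the noncanonical receptors and their adaptors, 6 of 7 tested genes rose in Bbs2-/- against WT, with a median of 1.07. In the fit without WT 2 and WT 3, 3 of 8 tested rose. Cd40, a receptor of antigen-presenting cells, rose by 2.00, Tnfrsf13b by 1.72, Traf1 by 1.07 and Traf3 by 0.67. Without WT 2 and WT 3, Tnfrsf13b (adjusted p = 0.0591) and Traf3 (adjusted p = 0.0759) did not pass. Without the 4 libraries with Foxj1, Cd40 (adjusted p = 0.0629) and Traf1 (adjusted p = 0.0596) did not pass. With treatment 6 fell, with a median of -1.08. Tnfrsf11a, the receptor of RANK ligand, fell by 2.41 and Traf1 by 1.08.

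NF-kB target genes had a median of 1.503 in Bbs2-/- against WT, where 18 of 22 tested rose and 1 fell. In the fit without WT 2 and WT 3, 11 of 23 tested rose and 1 fell. Bcl2a1b, a survival gene of the Bcl2 family with near-identical copies among which reads may be split, rose by 2.65, the interferon-induced chemokine gene Cxcl10 by 2.38, and the adhesion genes Vcam1 and Icam1 by 1.70 and 1.41. Ptgs2, which encodes the inducible cyclooxygenase, was the gene that fell, and that rests on 1 library: WT 1 had 490 CPM while the other WT libraries had at most 1.33 CPM and Bbs2-/- libraries 0.840 to 1.84 CPM. WT 1 is also the library with the epididymis markers, and their part in the Ptgs2 value was not tested. Its log2 fold change was -6.73 with WT 1 (adjusted p = 0.0251) and 0.48 without it (adjusted p = 0.543), and its call was also lost without any 1 Bbs2-/- library (adjusted p up to 0.0703). With treatment 14 targets fell and 1 rose, with a median of -1.27. Bcl2a1b fell by 2.87 and Icam1 by 1.29, while Nos2, which encodes the inducible nitric oxide synthase, rose by 0.83, a call lost without the 4 libraries with Foxj1 (adjusted p = 0.0552). In treated Bbs2-/- against WT no gene of the 6 lists passed in edgeR, and 15 of 80 (18.8%) had an unadjusted p under 0.05, against 10.6% of all genes tested. Of the 88 genes, 8 did not pass the filter on low counts: Lta, Tnfsf11, Cd40lg, Fasl, Tnfrsf13c, Il6, Il12b and Csf2.

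**Figure D5:**
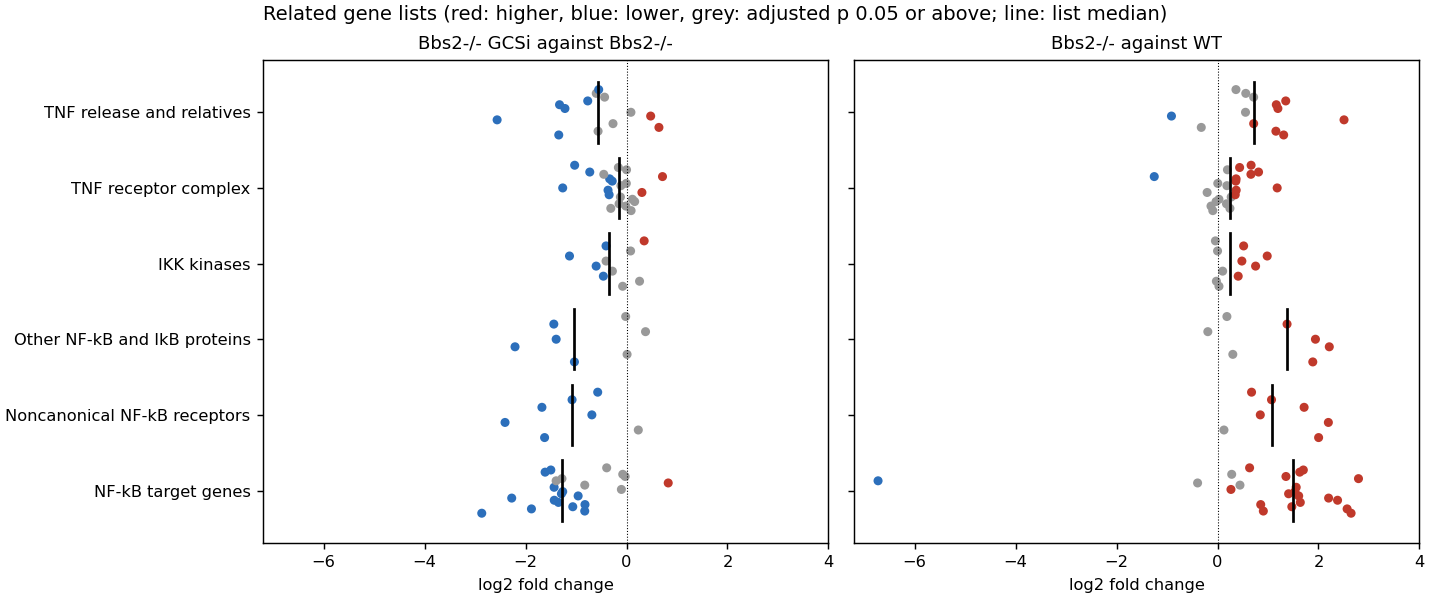
Log2 fold change of each tested gene of the 6 lists for treated against untreated Bbs2-/- and for Bbs2-/- against WT, with 1 point per gene, coloured by direction where it passed the threshold, and a bar at the list's median. Among target genes 14 of 22 fell with treatment and 18 of 22 rose against WT, and the point at -6.73 is Ptgs2.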

How the data were processed

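Per the labels' protocols, RNA of flash-frozen adipose tissue was made into stranded mRNA libraries. The authors deposited a table of estimated counts per gene without scaling, and a table of log2 FPKM values. The submitters' processing notes name the build mm10. The aligner, counter, strand setting and annotation were not given in the sources used here. Between 93.0 and 94.2% of the estimated counts were whole numbers within 1e-06. Of 53431 rows, 52207 matched GENCODE M21, which gave symbols and coordinates.

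Estimated counts were rounded and tested in edgeR 4.0.16 (R 4.3.3) with TMM, filterByExpr and the robust quasi-likelihood test, in 1 fit of 12 libraries with group as the only term. P-values were adjusted by Benjamini-Hochberg over 15968 genes, with a threshold of 0.05. CPM are per 1e+06 TMM-scaled counts, and likeness used log2 CPM with a prior count of 2. No library repeats another of its own group, since the chi-square between libraries within a group, divided by its degrees of freedom, was 16.9 to 84.9. Libraries of different groups were not compared by this chi-square. The procedure was tested on simulated counts.

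The members, gene lists and the naming rule were chosen with earlier results of these data known. The rule names the members, Bbs2, Ugcg, all other NF-kB and IkB genes, up to 4 risen and 2 fallen genes of each other list by smallest p, and the 3 genes nearest each member. The 22 alternatives included DESeq2 1.42.0, limma 3.58.1 on log2 FPKM, other scalings and filters, a replicate block and fits without libraries. No column of values was left unused.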

Additional observations from a re-analysis of the deposited data

Results flagged for a closer look

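A group of 4 libraries was marked where 1 library's gap to its nearest neighbour exceeded Dixon's 95% critical share of the group's range, which chance alone gives in about 1 of 20 groups; 8 of 141 groups were marked. Among the members, Bbs2-/- 4 stood above its group for Ikbke, with 75.7 CPM where the other 3 had 44.4 to 49.5 CPM, and for Relb, with 30.2 CPM where they had 24.2 to 25.2 CPM. The same library was high for Tnfrsf13b, with 18.9 CPM against 10.9 to 12.2 CPM in the other 3. WT 1 stood apart for Ptgs2, with 490 CPM against 0.270 to 1.33 CPM in the other WT libraries, and for Tnfrsf11a, with 23.3 CPM against 2.92 to 6.40 CPM. Cd40 was high in WT 3, at 2.59 CPM against 1.28 to 1.45 CPM. Low values were those of Map3k14 in treated library 4, 11.3 CPM against 14.3 to 14.7 CPM, and of Nfkbil1 in treated library 3, 11.1 CPM against 12.7 to 13.0 CPM. The causes were not tested.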

How the results depend on the processing

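Over 22 alternatives, 6 to 9 members were called in Bbs2-/- against WT, 6 to 7 in treated against untreated Bbs2-/- and 0 in treated Bbs2-/- against WT. Tnf, Tnfrsf1b, Nfkb1, Nfkb2, Rel and Ikbke kept their call and direction in all 22 for both of the first comparisons, while Tnfaip3 was called in 10 and 13 of them. Leaving out 1 library gave 4951 to 7212, 4614 to 6611 and 3 to 49 genes called in the 3 comparisons, and 6 to 9, 6 to 7 and 0 members. Without WT 2 and WT 3, 3417 genes were called in Bbs2-/- against WT in place of 6263. In treated Bbs2-/- against WT, where 41 genes were called, DESeq2 called 275, a fit of only the 2 groups compared 2, a fit without WT 1, WT 4 and treated libraries 1 and 3 called 2, and a fit without WT 2 and WT 3 called 1. Fits without libraries also hold fewer of them, and the causes of these shifts were not tested. Tnfrsf1a in Bbs2-/- against WT passed in DESeq2 (adjusted p = 0.0405) and with library size alone (adjusted p = 0.0059), and Relb with library size alone (adjusted p = 0.0208) and without the 4 libraries that hold Foxj1 (adjusted p = 0.0244). Among other named genes, Cd40, Traf1, Nos2, Timp3 and Ugcg lost a call without those 4 libraries, and Tab2, Tbk1, Traf3, Tnfrsf13b, Timp3 and Ugcg without WT 2 and WT 3. Rela and Nfkbib gained a call in Bbs2-/- against WT with library size alone.

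With library size alone the median log2 fold change of all genes was 0.164 in place of -0.0188 in Bbs2-/- against WT, -0.0972 in place of 0.0317 in treated against untreated Bbs2-/- and 0.0355 in place of -0.0176 in treated Bbs2-/- against WT. The share of called genes that were higher was 69.0% in place of 49.9%, 35.5% in place of 49.6% and 79.6% in place of 68.3%.

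The replicate block called 6012, 5680 and 9 genes and 8, 6 and 0 members in the 3 comparisons. Tnfrsf1a (adjusted p = 0.0487) and Relb (adjusted p = 0.0232) gained a call with it in Bbs2-/- against WT, and Tnfaip3 lost its calls (adjusted p = 0.0772 and 0.0725). Deviations of same-numbered libraries correlated by -0.0214 to 0.0164 in Bbs2-/- against WT, 0.0999 to 0.308 in treated against untreated Bbs2-/- and -0.149 to 0.278 in treated Bbs2-/- against WT. Treated libraries 1, 3 and 4 correlated best with the untreated Bbs2-/- library of the same number. Against WT, only treated library 2 did so, and no untreated Bbs2-/- library. The main fit took no pairing, and whether the numbers pair treated and untreated Bbs2-/- libraries was not settled.

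A sign changed under some alternative for 13 results, and among these only Ptgs2 was called. The 102 results compared also include counts of called genes and members, which have no sign. Ptgs2 in Bbs2-/- against WT gave 0.51 without WT 1, WT 4 and treated libraries 1 and 3, and -7.14 to 0.48 when 1 library was left out; WT 1 is absent from both fits that turned it. In Bbs2-/- against WT, Nfkbil1 gave 0.00498 with library size alone and 0.0577 without WT 2 and WT 3. In treated against untreated Bbs2-/-, Bbs2 gave 0.0518 with limma, 0.0510 without the 4 libraries and 0.00231 without WT 2 and WT 3, and -0.0948 to 0.0493 with 1 library left out. Nfkbia gave 0.0876 without the 4 libraries, and Nfkbib gave -0.114 with library size alone and -0.0675 to 0.0786 with 1 left out. Rela gave 0.0309 with limma, 0.0708 without the 4 libraries and -0.0967 to 0.0497 with 1 left out, and Relb gave -0.0997 with library size alone and -0.0540 to 0.156 with 1 left out. In treated Bbs2-/- against WT, Nfkbid gave -0.0209 with limma, -0.0117 with the replicate block, -0.142 without the 4 libraries, -0.117 without WT 2 and WT 3 and -0.280 to 0.294 with 1 left out. Rel gave -0.208 without WT 2 and WT 3 and -0.0614 to 0.358 with 1 left out. Tnfaip3 gave 0.0276 with library size alone, 0.0143 without WT 2 and WT 3 and -0.166 to 0.122 with 1 left out, and Tnfrsf1b gave 0.202 without the 4 libraries and -0.304 to 0.320 with 1 left out. Nfkbia gave -0.0626 to 0.111 and Nfkbiz -0.164 to 0.0476 with 1 left out.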
